A study of Homo sapiens with 12 samples.

Results

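The genes described here were 38 named integrin and focal adhesion genes, taken by symbol from a list and matched through their Ensembl identifiers to a table of 62702 human genes. All 38 matched, and 37 passed the filter on low counts that left 17677 genes for testing. The remaining gene, EFS, had 1 count in 1 library and 0 in the other 11. The 38 comprised 6 integrin alpha chains, 6 integrin beta chains, 5 talins, kindlins and vinculin, 8 focal adhesion kinase and Cas-CRK adaptors, 3 genes of the ILK complex, 3 tensins, 4 zyxin-like LIM proteins and VASP, and 3 actin crosslinkers.

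Integrins are transmembrane receptors, each made of 1 alpha and 1 beta chain, that hold an epithelial cell to the proteins of its basement membrane and matrix. Inside the cell, talins and kindlins bind the beta chain and switch the receptor on. Vinculin, filamins, alpha-actinins and tensins tie it to actin, and focal adhesion kinase, paxillin and the p130Cas adaptors relay its signals. In mammary epithelium the pairing of the alpha 6 and beta 4 chains anchors basal cells to laminin in hemidesmosomes.

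The libraries came from MCF10AT, a Ras-transformed derivative of the non-tumorigenic human breast line MCF10A, made to express the human prolactin receptor combination hPRLrL/hPRLrI, the long and intermediate forms. In the intact groups the intermediate form kept its I-tail, and in the deleted groups the I-tail was removed. Cells of all 4 groups, untreated ones included, were held without serum for 24 h, and prolactin (PRL) was then added to the treated cells, at 250 ng/ml over 2 h. Each group had 3 libraries of polyA-selected RNA, 12 in all. The labels speak of biological replicates and give no further source for them, so p-values here measure the spread between these libraries. The labels do not state whether each line is 1 clone or how the receptors were introduced, so a difference between the lines other than the I-tail cannot be told apart from the deletion. Counts per gene do not show the removal of the tail and check neither genotype label.

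Depth was 36120808 to 57324865 counts per library, of which the 38 genes took 1.324% to 2.534%. The 5 epithelial and 6 basal mammary markers were all detected (in CPM, counts scaled for library depth), with KRT5, KRT17, KRT8 and LAMB3 well expressed. KRT18 and COL17A1 averaged 354 and 245.7 CPM. The others were lower: KRT14, CDH1 and TP63 averaged 40.95, 32.9 and 16.7 CPM, and EPCAM and KRT19 only 3.06 and 0.717 CPM. The epithelial sum was 1110 to 2043 CPM in the intact untreated and 1264 to 3068 CPM in the intact PRL libraries, and 1097 to 1629 CPM in the deleted untreated and 1266 to 2419 CPM in the deleted PRL ones. In the same order the basal mammary sum was 1564 to 6520, 1673 to 7902, 1900 to 8613 and 1909 to 9909 CPM. The untreated and PRL ranges overlapped in both lines, and the part of these sums in the PRL differences was not tested. Endothelial markers summed to at most 3.303 CPM and leukocyte markers to at most 1.016 CPM, with PTPRC at 0 in 11 of 12 libraries. Of 7 fibroblast markers, COL1A1 and DCN averaged 146.8 and 319.5 CPM, while LUM, PDGFRA and COL1A2 averaged 0.0563, 0.0678 and 0.22 CPM. The summed level of the fibroblast list was 405.8 to 501.9 CPM in the intact untreated libraries and 404.6 to 460.3 CPM in the intact PRL ones. It was 412.1 to 566.7 CPM in the deleted untreated libraries and 456.5 to 608.5 CPM in the deleted PRL ones. In bulk RNA, fewer cells of a type and less RNA per cell cannot be told apart.

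The libraries also stood apart in a way that the groups did not explain. Their titles are numbered 1 to 12, and each run of 4 consecutive titles holds 1 library of each group. The labels do not say what a run stands for, and it is called a title run below, with replicate 1, 2 and 3 of a group in title runs 1, 2 and 3. Libraries of title run 1 had 24477 to 25200 detected genes, those of run 2 had 19073 to 23119 and those of run 3 had 21761 to 23895. The library intact PRL 2 had the fewest. Across genes, each of the 12 libraries deviated from its group mean most like a library of its own title run. Within runs, the correlation of these deviations between libraries of different groups was 0.10 to 0.60 over 18 pairs. Each comparison below is therefore given for the groups as labelled, then within title runs. Values for single libraries are TMM-scaled CPM in the order of title runs 1, 2 and 3.

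Promoter windows were read for every gene of the 38 that had one, and some of them are printed here. RefSeq windows on GRCh38.p14, from 250 bases before to 50 bases after a transcript start, were at hand for 31 of the 38 genes, with 65 windows in all. Several genes have more than 1 window, and some of these overlap. The windows were searched on both strands for letters that known factors prefer, namely the STAT5 type TTCNNNGAA, the AP-1 type TGANTCA, the TEAD type GGAATG, the SMAD type GTCTAGAC and the SRF type known as the CArG box. NEDD9 is shown because it and TNS4, which was not among the 31, had the largest PRL differences of the 37. The 3 windows of NEDD9, of which 2 nearly coincide, held none of the 5 motifs. BCAR1 is shown as a gene that lay higher with PRL in every within-run pair and holds the STAT5-type letters, and FLNA and ACTN1 as such genes that hold the SRF type. Capitals mark the motif matches, in ACTN1 an SRF-type match followed by a TEAD-type match that reads on the opposite strand.
NEDD9, chr6:11382299-11382598, minus strand: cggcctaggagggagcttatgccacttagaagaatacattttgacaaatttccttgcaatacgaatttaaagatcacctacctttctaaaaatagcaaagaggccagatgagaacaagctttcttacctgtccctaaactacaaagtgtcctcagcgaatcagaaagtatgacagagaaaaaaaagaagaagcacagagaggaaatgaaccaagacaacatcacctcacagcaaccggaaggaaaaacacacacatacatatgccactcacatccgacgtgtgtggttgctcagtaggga
NEDD9, chr6:11232619-11232918, minus strand: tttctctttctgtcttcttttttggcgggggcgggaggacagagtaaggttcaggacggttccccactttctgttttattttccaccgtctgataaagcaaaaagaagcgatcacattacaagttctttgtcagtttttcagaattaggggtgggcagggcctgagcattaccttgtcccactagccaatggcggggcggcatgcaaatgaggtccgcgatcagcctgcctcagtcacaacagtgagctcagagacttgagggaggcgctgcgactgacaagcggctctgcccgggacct
BCAR1, chr16:75248102-75248401, minus strand: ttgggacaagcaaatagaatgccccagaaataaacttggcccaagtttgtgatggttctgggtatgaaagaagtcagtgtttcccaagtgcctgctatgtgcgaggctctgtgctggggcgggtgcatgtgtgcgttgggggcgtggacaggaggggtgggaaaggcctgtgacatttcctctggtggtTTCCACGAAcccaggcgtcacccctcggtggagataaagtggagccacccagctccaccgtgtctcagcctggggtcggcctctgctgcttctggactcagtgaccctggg
FLNA, chrX:154374585-154374884, minus strand: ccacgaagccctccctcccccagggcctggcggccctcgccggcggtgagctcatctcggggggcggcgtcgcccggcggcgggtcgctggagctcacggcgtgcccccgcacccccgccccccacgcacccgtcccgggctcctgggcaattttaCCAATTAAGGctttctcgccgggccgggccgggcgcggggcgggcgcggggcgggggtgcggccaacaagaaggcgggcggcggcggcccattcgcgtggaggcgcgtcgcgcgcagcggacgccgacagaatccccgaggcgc
ACTN1, chr14:68977517-68977816, minus strand: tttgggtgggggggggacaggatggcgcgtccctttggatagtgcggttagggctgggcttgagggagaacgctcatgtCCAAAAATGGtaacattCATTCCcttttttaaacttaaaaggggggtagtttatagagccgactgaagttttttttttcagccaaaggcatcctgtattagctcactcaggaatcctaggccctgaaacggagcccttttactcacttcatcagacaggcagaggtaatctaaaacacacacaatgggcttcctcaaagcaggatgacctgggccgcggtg
The SRF-type letters lay in 6 of the 65 windows, those of ITGB6, TGFB1I1, LPP, TES, FLNA and ACTN1 (9.23% of windows), against 1.29% of all 35116 windows in the table. STAT5-type letters lay in 3 windows, those of PXN, BCAR1 and LIMS1 (4.62%, against 7.66% of all windows). AP-1-type letters lay in 7 windows (10.8%, against 7.71%), TEAD-type letters in 10 (15.4%, against 14%) and the SMAD type in none (0.202% of all windows). These matches describe letters in the window and do not show a bound site. The AP-1-type matches fell in ITGA5, BCAR1, LIMS1, LPP and ACTN4, of which ITGA5 and BCAR1 lay higher with PRL in every within-run pair. Of the STAT5-type genes PXN and BCAR1 did so, and LIMS1 did not. Of the SRF-type genes FLNA and ACTN1 did so, and ITGB6, TGFB1I1, LPP and TES did not. Among the 37 tested genes 32.4% did so with or without a motif, and a link between motifs and PRL was not tested.

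Among the integrins, chains of laminin receptors were the most abundant. Per kilobase of exon, ITGB4 was the most abundant of the 38 genes with a mean of 520 CPM per kb over the 12 libraries, ahead of FLNA at 441, TNS4 at 347, ACTN4 at 230 and ITGA3 at 213 CPM per kb. ITGB4 and ITGA3 encode the beta 4 chain of hemidesmosomes and the alpha 3 chain of the laminin receptor, and FLNA encodes filamin A, an actin crosslinker that binds integrin tails. ZYX at 191, TLN1 at 147, VASP at 93.1 and ITGA5 at 86.6 CPM per kb followed. The spread over libraries was wide: ITGB4 ranged from 229.7 to 836.8, FLNA from 208.4 to 800 and TNS4 from 118.1 to 764.5 CPM per kb, so the order of these 3 neighbours is within their spread. ITGB5 at 62.9 and ITGB1 at 53.9 CPM per kb, the beta chains of the alpha V beta 5 vitronectin receptor and of most matrix receptors, came next among the beta chains. ITGA6, the laminin-binding partner of beta 4, averaged 13.8 CPM per kb with a range of 11.66 to 16.64, below ITGB4 in every library.

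At the low end were ITGA1, ITGB3 and EFS, a Cas family adaptor. ITGA1, the alpha chain of a collagen receptor, averaged 0.182 CPM per kb on 83 to 220 counts per library. ITGB3, the beta chain of the platelet and vitronectin receptors, averaged 0.18 CPM per kb on 19 to 53 counts, and 51.6% of its annotated exon bases also belong to AC068234.1, a gene on the same strand that had 0 counts, so its count is uncertain. The count of 1 for EFS is below the 3 counts that a value of 0 allows, which correspond to 0.0521 to 0.0897 CPM depending on the library. This floor covers counting error alone.

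**Figure D1:**
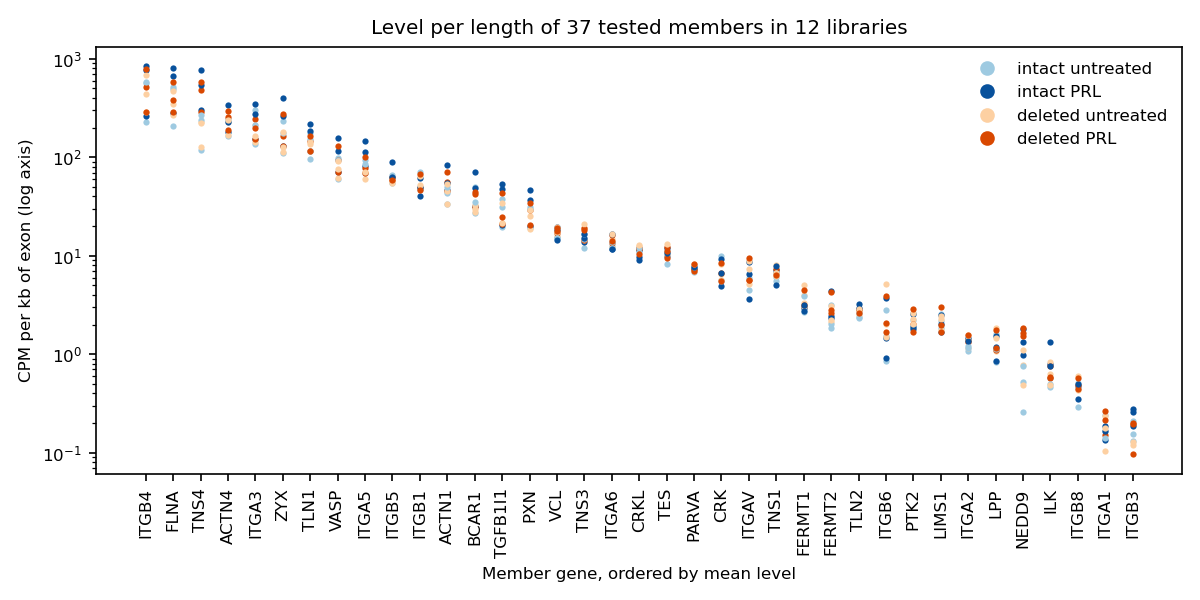
TMM-scaled CPM per kb of exon (log axis) for the 37 tested genes, ordered by mean, with 1 point per library coloured by group. ITGB4, FLNA and TNS4 lead, and ITGA1 and ITGB3 are lowest.

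PRL was compared with no treatment in each line and as the average of both lines. TNS4, which encodes tensin 4, an adaptor at the tails of beta integrins that lacks the actin-binding part of its relatives, and NEDD9, a Cas family scaffold for focal adhesion kinase and Src, lay higher with PRL in every title run and both lines. On average TNS4 stood 2.47-fold and NEDD9 2.37-fold higher. Neither passed the adjusted threshold in the fit of groups alone, and both passed once the title run was a term. In that fit of groups alone 0 of the 37 genes were called in any comparison by edgeR's quasi-likelihood test with Benjamini-Hochberg adjustment at 0.05. Over all 17677 genes, 0.119% were called for average PRL, 0.017% for PRL in the intact line and 0.017% for PRL in the deleted line.

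TNS4 lies on chromosome 17, from 40475828 to 40501597 on the minus strand (GENCODE 29, GRCh38). The intact libraries held 572, 1295 and 1152 CPM untreated and 1458, 3705 and 2641 CPM with PRL. The deleted libraries held 616, 1106 and 1069 CPM untreated and 1401, 2361 and 2829 CPM with PRL. Every PRL library was above every untreated one, although title run 1 was the lowest run in all 4 groups. TNS4 was the 1 gene of the 37 whose 6 PRL and 6 untreated libraries did not overlap, and 0.441% of all genes lay higher without overlap. As group means the levels were 1006 ± 383 and 2601 ± 1124 CPM (SD, n = 3) in the intact line, and 930.5 ± 273 and 2197 ± 728 CPM in the deleted line. The average log2 fold change was 1.30 ± 0.28 (SE), with an unadjusted p of 3.83e-04 and an adjusted p of 0.178 by edgeR. The lines gave 1.37 ± 0.39 with the intact and 1.24 ± 0.39 with the deleted I-tail. Within title runs the 6 differences were close to one another, from 2.13-fold to 2.86-fold.

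With title run as a term, the log2 fold change of TNS4 was 1.30 ± 0.10 with an adjusted p of 3.08e-06 by edgeR. Under that fit it was called in the intact line at 1.36 ± 0.14 (adjusted p = 1.7e-04) and in the deleted line at 1.23 ± 0.14 (adjusted p = 5.79e-04). In that fit 1.12% of all genes were called for average PRL, 0.351% for the intact and 0.322% for the deleted line. Without title run 1, and with no term for the other runs, the adjusted p was 0.00198. Without the library intact PRL 1 alone it was 0.0345, while without title run 2 or 3 it was 1. In the fit of groups alone, the difference in PRL response between the lines was -0.13 ± 0.55 on the log2 scale (95% interval -1.31 to 1.05). In that fit this is a wide interval beside the response itself.

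NEDD9 lies on chromosome 6, from 11183298 to 11382348 on the minus strand, and was a low gene with 97 to 865 counts per library. It stood at 5.38, 2.68 and 7.88 CPM in untreated intact cells and 18.5, 13.9 and 10.2 CPM after PRL. In the deleted line it stood at 5.05, 8.07 and 11.5 CPM untreated and 19.2, 17.1 and 15.8 CPM after PRL. PRL and untreated libraries did not overlap in either line, but an untreated deleted library (11.5 CPM) was above a PRL intact one (10.2 CPM). Means were 5.31 ± 2.60 and 14.2 ± 4.20 CPM (SD, n = 3) in the intact line, and 8.21 ± 3.23 and 17.4 ± 1.74 CPM in the deleted line. The average log2 fold change was 1.25 ± 0.26 (unadjusted p = 3.56e-04, adjusted p = 0.17 by edgeR), 1.41 ± 0.37 in the intact and 1.08 ± 0.37 in the deleted line.

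The size for NEDD9 differed between title runs. The log2 differences were 1.78 and 1.92 in run 1, 2.35 and 1.08 in run 2, and 0.37 and 0.45 in run 3, for the intact and deleted lines. With title run as a term the average was 1.28 ± 0.23 and the adjusted p was 0.00882 by edgeR, while for the intact and the deleted line it was 0.0917 and 0.355. Without the library intact untreated 1 and with the term the adjusted p for the average was 0.0501. Leaving out title run 1 gave a log2 fold change of 0.96 (adjusted p = 0.45), and leaving out run 3 gave 1.73 (adjusted p = 0.637), both without the term. In the fit of groups alone, the lines differed in response by -0.33 ± 0.52 (95% interval -1.45 to 0.79).

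**Figure D2:**
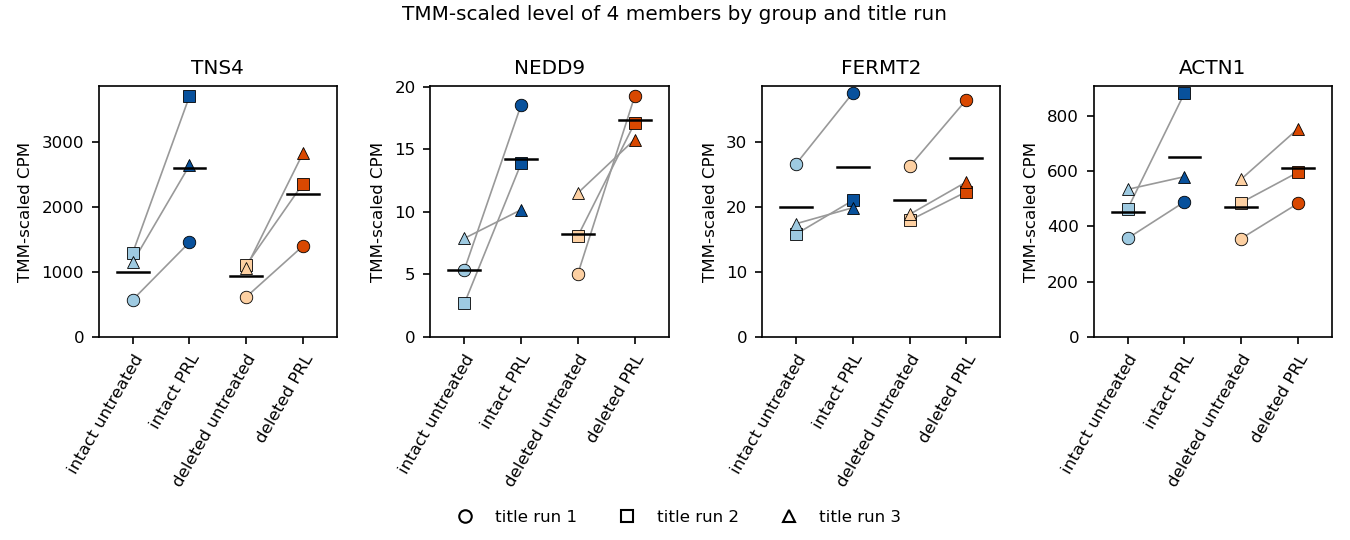
TMM-scaled CPM (linear axes from 0) of TNS4, NEDD9, FERMT2 and ACTN1 in the 4 groups. Points are libraries with a shape for each title run, grey lines join untreated and PRL libraries of 1 run and line, and black bars are group means. All 6 lines rise for each of the 4 genes, while title run 1 sits low for TNS4 and ACTN1 and high for FERMT2.

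FERMT2 encodes kindlin-2, a beta chain activator, and was the third gene called with the title-run term. Its levels were 26.6, 15.8 and 17.4 CPM in untreated intact cells and 37.5, 21.0 and 19.9 CPM with PRL. In the deleted line they were 26.2, 17.9 and 18.9 and 36.5, 22.3 and 23.9 CPM. Title run 1 was the highest in each group, and groups overlapped as labelled. The log2 fold change was 0.39 ± 0.21 (adjusted p = 0.98) for groups alone and 0.37 ± 0.08 (adjusted p = 0.0353) with the title-run term, both by edgeR. This call was lost in 9 of 12 fits that kept the term and left out 1 library, with adjusted p up to 0.139, and under scaling by library size alone (0.254).

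ACTN1, for alpha-actinin 1, which crosslinks actin and binds beta tails and vinculin, had 357, 464 and 534 CPM in untreated intact cells and 489, 882 and 580.3 CPM with PRL. It had 356, 486 and 571 CPM in untreated deleted cells and 483, 596 and 754 CPM with PRL. The gene was higher with PRL in each run, most in the pair that holds intact PRL 2. Its average log2 fold change was 0.45 ± 0.19, with an adjusted p of 0.98 for groups alone and 0.0638 with the title-run term by edgeR. ITGA5, the alpha chain of the fibronectin receptor, was at 520.5, 715 and 651 CPM in untreated intact cells and 612, 1109 and 862 CPM with PRL. In the deleted line it was at 532, 455 and 541 CPM untreated and 589, 524 and 758 CPM with PRL. Groups overlapped, and the average of 0.37 ± 0.16 had an adjusted p of 0.98 for groups alone and 0.23 with the term.

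These 4 genes, TNS4, NEDD9, ACTN1 and ITGA5, were the ones with an unadjusted p under 0.05 for average PRL, where 3.81% of all genes had one. Over the 37 genes the median log2 fold change was 0.17, against -0.02 over all genes, and 29 were above 0, against 46.1% of all genes. The median was 0.24 with the intact and 0.06 with the deleted I-tail, with 28 and 23 genes above 0, where 48.4% and 47.2% of all genes were. With 1 library left out these medians ranged from 0.16 to 0.32 and from 0.04 to 0.12, and under scaling by library size alone the median for the deleted I-tail was -0.02. In the intact line 5 genes lay higher with PRL without overlap of the 3 and 3 libraries, namely ITGA2, TLN2, NEDD9, ILK and TNS4, where 2.61% of all genes did. In the deleted line TNS4 and NEDD9 did (3.29% of all genes), and CRKL lay lower (4.97% of all genes). The gap for CRKL was narrow, between deleted PRL 2 at 63.66 and deleted untreated 1 at 63.72 CPM.

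Within title runs, 12 of the 37 genes (32.4%) were higher with PRL in all 6 pairs, against 8.37% of all genes. They were ITGA3 and ITGA5 of the alpha chains, TLN1 and FERMT2 of the activators, PXN, BCAR1 and NEDD9 of the adaptors, TNS4, ZYX and VASP, and FLNA and ACTN1 of the crosslinkers. Under scaling by library size alone the count was 10 (3.7% of all genes), without TLN1 and ACTN1, and with an offset for GC content it was 10 (5.69%), without ITGA3, TLN1 and PXN but with VCL. CRKL, an adaptor that binds phosphorylated Cas proteins, was the 1 gene lower in all 6 pairs, where 6.05% of all genes were. The CRKL pairs of run 1 were nearly level, and with the offset for GC content it was no longer lower in all 6.

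GC content moved with these differences. Across the 37 genes, whose longest transcripts had 36.3% to 64.9% GC, the average PRL difference correlated with GC at a Pearson r of 0.41 and a Spearman rho of 0.57. Over all genes with a transcript sequence these were 0.26 and 0.35. Genes share their libraries, so this is a description. With an offset for GC content TNS4 had a log2 fold change of 1.18 (adjusted p = 0.00773) and NEDD9 1.30 (adjusted p = 0.0447) by edgeR without a title-run term.

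**Figure D3:**
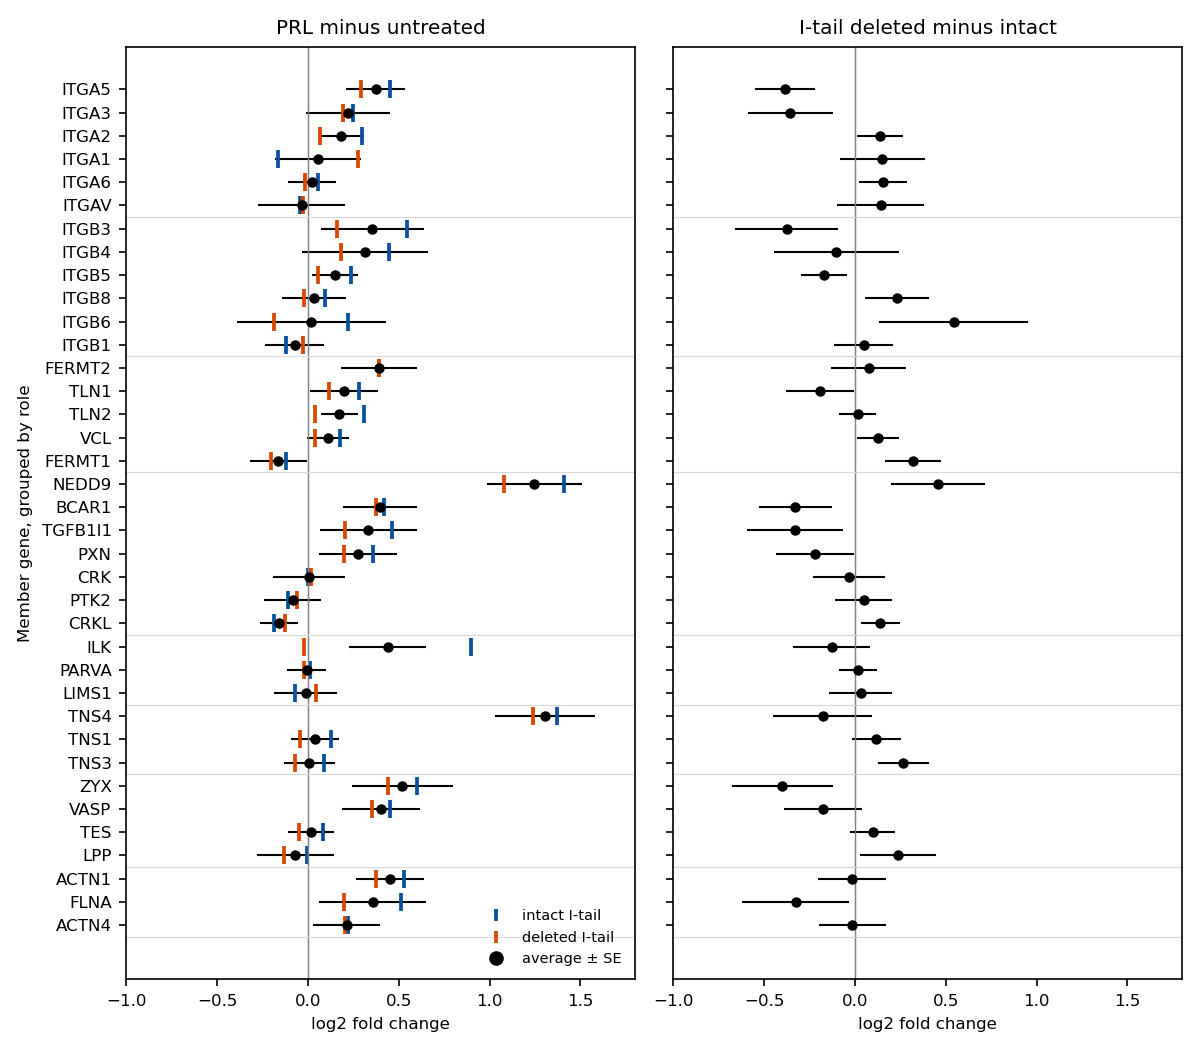
Log2 fold changes of the 37 genes by role: average PRL effect ± SE with the intact (blue) and deleted (orange) lines on the left, and average I-tail deletion effect ± SE on the right. TNS4 and NEDD9 stand beyond 1 on the PRL side, and ILK has the widest gap between the lines.

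By role, all integrin chains stayed within a log2 fold change of -0.07 to 0.37 for average PRL, 5 of 6 alpha and 5 of 6 beta chains being above 0 and none called. ITGA2, the alpha chain of a collagen receptor, was at 8.44, 9.13 and 9.55 CPM untreated and 10.9, 11.6 and 10.8 CPM with PRL in intact cells. It was at 9.05, 10.9 and 12.4 and 10.9, 10.6 and 12.3 CPM in deleted cells, where the groups overlapped. ITGB4 was at 1553, 3827 and 3918 CPM in untreated intact cells and 1765, 5238 and 5658 CPM with PRL. Its deleted libraries held 1934, 2977 and 4574 and 1933, 3496 and 5342 CPM, and title run 1 was lowest in every group. The difference of 0.31 ± 0.35 was within that spread. ITGB5 was at 351, 405 and 428 CPM untreated and 409.6, 582 and 407 CPM with PRL in intact cells, and at 355, 399 and 367 and 376, 409 and 380.2 CPM in deleted cells, with its highest value in intact PRL 2.

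The low chains were noisier. ITGB3 was at 0.927, 0.579 and 0.677 CPM untreated and 1.14, 1.23 and 0.829 CPM with PRL in intact cells, and at 0.831, 0.57 and 0.522 and 0.422, 0.886 and 0.852 CPM in deleted cells. ITGA1 was at 4.45, 3.09 and 2.59 and 3.50, 2.48 and 3.05 CPM in intact cells, and at 4.39, 1.94 and 3.34 and 4.89, 2.80 and 3.97 CPM in deleted cells. Neither separated the groups. ITGA6, ITGAV, ITGB1, ITGB6 and ITGB8 had average PRL differences of -0.07 to 0.04. ITGAV and ITGB1, which pair with many partners, were higher in all 4 libraries of title run 1 than in the other 8, ITGAV by 0.73 on the log2 scale. ITGB6, a chain that activates latent TGF-beta, set title run 3 apart, at 13.07 to 24.42 CPM there against 3.971 to 9.714 CPM in the other 8 libraries. ITGB8 did so by less, at 7.63 to 9.01 against 4.385 to 7.432 CPM. The share of all genes that set run 3 apart was not counted.

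Of the activators and linkers, TLN2, the second talin, was at 38.3, 37.5 and 42.7 CPM untreated and 46.4, 52.4 and 47.8 CPM with PRL in intact cells. Those libraries did not overlap (0.31 ± 0.14, adjusted p = 1 by edgeR), but in deleted cells, at 40.6, 44.3 and 46.6 and 45.4, 46.9 and 42.7 CPM, they did. TLN1, the main talin, had an average difference of 0.20 ± 0.19 and VCL, vinculin, 0.11 ± 0.12. FERMT1, kindlin-1 of epithelia, differed by -0.16 ± 0.16. Of the adaptors, BCAR1 (p130Cas) differed by 0.40 ± 0.20, TGFB1I1 (Hic-5, a paxillin relative) by 0.33 ± 0.26 and PXN (paxillin) by 0.28 ± 0.22. CRK, PTK2 (focal adhesion kinase) and CRKL lay between -0.16 and 0.01. None of these passed the threshold. Among the cytoskeletal genes ZYX, a LIM protein of mature adhesions, differed by 0.52 ± 0.28, VASP, an actin elongation factor, by 0.40 ± 0.21, FLNA by 0.36 ± 0.29 and ACTN4 by 0.21 ± 0.19. FLNA, the second most abundant gene, was at 2206, 5531 and 5175 CPM untreated and 2956, 8468 and 7021 CPM with PRL in intact cells, and 2839, 3663 and 4993 and 3018, 4065 and 6122 CPM in deleted cells. TES and LPP, relatives of zyxin, and TNS1 and TNS3, the tensins that keep an actin-binding part, lay between -0.07 and 0.04. PARVA and LIMS1 (parvin alpha and PINCH-1), partners of ILK, were at -0.01 each.

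Removal of the I-tail was compared with the intact line in untreated cells, in PRL-treated cells and on average. No gene of the 37 was called in any of these by edgeR, with or without the title-run term, where each comparison called 0.00566% of all genes for groups alone. With the term the share was 0.00566% in untreated cells, 0.00566% with PRL and 0.0622% on average. The medians over the 37 genes were 0.03 in untreated cells, 0.00 with PRL and 0.02 on average, against 0.03, 0.02 and 0.03 over all genes. ITGA5 had the smallest p on average, at -0.38 ± 0.16 (unadjusted p = 0.0349, adjusted p = 0.991), and was the 1 of 37 under 0.05, where 2.28% of all genes were. Its values above show the lines nearly equal in title run 1 and lower with the deleted I-tail in runs 2 and 3.

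FERMT1 and TNS3 leaned the other way. FERMT1 was at 14.4, 16.1 and 20.9 CPM in untreated intact and 17.7, 21.1 and 27.1 CPM in untreated deleted cells. With PRL it was at 15.8, 14.6 and 16.9 CPM intact and 16.2, 17.1 and 24.0 CPM deleted, and the average was 0.32 ± 0.16 (adjusted p = 0.991). TNS3 was at 140.3, 173 and 195 CPM in untreated intact and 170.2, 225 and 249 CPM in untreated deleted cells. With PRL it was at 163, 179.6 and 196 CPM intact and 170.0, 226 and 218 CPM deleted, and the average was 0.27 ± 0.14. Both were higher with the deleted I-tail in all 6 within-run pairs, as were ITGB8 and CRKL, where 4.04% of all genes were, and 0 of 37 were lower in all 6 (2.99% of all genes). With the title-run term the adjusted p was 0.317 for FERMT1 and for TNS3 by edgeR. Without overlap of the 3 and 3 libraries, VCL and CRKL lay higher with the deleted I-tail in untreated cells (3.58% of all genes) and ILK lay lower in PRL-treated cells (2.06% of all genes). The gaps were narrow. The nearest untreated libraries were intact 1 at 156.0 and deleted 1 at 157.3 CPM for VCL, and intact 3 at 63.53 and deleted 1 at 63.72 CPM for CRKL. For ILK they were deleted PRL 2 at 2.629 and intact PRL 3 at 2.633 CPM. NEDD9 was 0.46 ± 0.26 higher on average with the deleted I-tail, and 5 of its 6 within-run pairs were above 0. The untreated differences were -0.09, 1.58 and 0.54 in runs 1, 2 and 3. With PRL they were 0.05, 0.30 and 0.63, so the untreated pair of run 2 was the largest.

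Among the 37 genes GC content moved with the deletion differences more than with those of PRL. Over all genes the sizes were close, at r = -0.28 for the deletion and 0.26 for PRL. Across the 37 genes the average deletion difference correlated with GC at r = -0.70 (rho = -0.72), against -0.28 (rho = -0.38) over all genes. The difference between title run 1 and the other runs did so at r = -0.80 (rho = -0.80), against -0.56 (rho = -0.62). The 8 genes ITGA3, ITGB4, TLN1, PXN, TNS3, VASP, FLNA and ACTN4 were lower in all libraries of title run 1 than in the other 8, where 13.6% of all genes were. The 7 genes ITGAV, ITGB1, FERMT2, PTK2, CRK, LIMS1 and LPP were higher (12.8% of all genes). These correlations share the 12 libraries and the part of GC in the deletion differences was not tested.

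**Figure D4:**
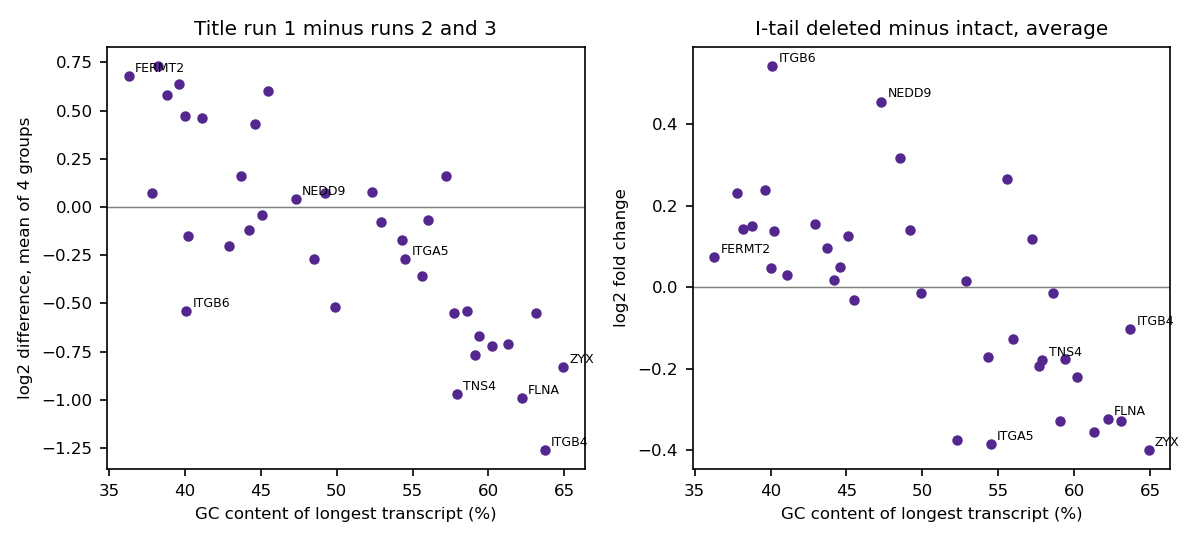
Log2 difference of each of the 37 genes against the GC content of its longest transcript, for title run 1 minus runs 2 and 3 (left) and for average I-tail deletion (right). Both clouds slope downward, with FLNA and ZYX low and FERMT2 above 0 in each.

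The response to PRL was also compared between the lines. The median difference, deleted minus intact, was -0.13 over the 37 genes and 8 were above 0, where 47.3% of all genes were. This median rests on single libraries: it was -0.22 without intact PRL 1, -0.21 without deleted PRL 3, -0.04 without intact untreated 1, -0.03 without intact PRL 2 and -0.02 without deleted untreated 3. No gene of the 37 was called, and 0% of all genes were. ILK alone had an unadjusted p under 0.05, where 0.718% of all genes had one. Its difference was -0.92 ± 0.42, with a 95% interval from -1.84 to -0.01. By edgeR's quasi-likelihood test with Benjamini-Hochberg adjustment the p was 0.0481 and the adjusted p was 1. ILK, the integrin-linked pseudokinase that scaffolds PINCH and parvin, was at 2.02, 1.60 and 1.75 CPM in untreated intact cells and 2.78, 4.63 and 2.63 CPM with PRL. In the deleted line it was at 2.19, 2.87 and 1.70 CPM untreated and 2.00, 2.63 and 2.05 CPM with PRL. Intact PRL 2 gave the highest value by far. ILK lies on chromosome 11 from 6603708 to 6610874, and 2374 of its 3484 exon bases (68.1%) overlap exons of TAF10, which runs the other way. No source used here states whether reads were counted by strand, so its 58 to 155 counts per library are uncertain as a measure of ILK. TAF10 averaged 11.4 CPM and differed by 0.21 ± 0.21 with PRL.

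Other genes of the pathway, in 4 lists with 87 genes, were read beside these, with 77 tested and 0 called in any comparison for groups alone. Of 14 tested matrix ligands, CCN2 and THBS1 had the smallest p for average PRL. CCN2, a matricellular protein, differed by 1.56 ± 0.42 (unadjusted p = 0.00252, adjusted p = 0.427 by edgeR), and THBS1, thrombospondin 1, by 0.98 ± 0.26 (unadjusted p = 0.00201, adjusted p = 0.404). With the title-run term CCN2 was called, at 1.48 ± 0.20 (adjusted p = 0.00087), and THBS1 was not (adjusted p = 0.0638). Of 47 other adhesion site proteins SRC, the kinase that acts with focal adhesion kinase on Cas proteins, was called with the term, at 0.51 ± 0.10 (adjusted p = 0.0232). None of 9 other integrins and none of 7 hemidesmosome and tetraspanin partners was called with the term. For the I-tail deletion 0 of the 77 were called, with or without it. The smallest p there was that of PEAK1, a pseudokinase scaffold, at 0.40 ± 0.19 on average (unadjusted p = 0.0543, adjusted p = 0.991 by edgeR), followed by LAMA3, a laminin-332 chain, at 0.48 ± 0.24. For the difference in response ITGB2, a leukocyte integrin chain, had -1.13 ± 0.63 (unadjusted p = 0.0954, adjusted p = 1 by edgeR).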

How the data were processed

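The deposited table held whole-number read counts per Ensembl gene for 12 libraries. The submitters' processing notes name STAR 2.7.9a, featureCounts of Subread, FastQC and the build GRCh38. Neither the annotation release nor the strand setting is stated in the sources used here. One entry without values was left out. Groups followed the labels' genotype and treatment. Counts were tested with edgeR 4.0.16 in R 4.3.3 (filterByExpr, TMM scaling, quasi-likelihood F test with 1 mean per group, robust), with Benjamini-Hochberg adjustment over all 17677 tested genes in each of 7 contrasts and a threshold of 0.05. The fit was tested on simulated data. Errors of log2 fold changes are SE. Levels per length used GENCODE 29 exon lengths, and GC content its longest transcripts. Genes with values in each library were, per contrast, the 4 with the smallest p, those called, and the 3 highest and 3 lowest per length. The members and lists were chosen with earlier results of these data known. Alternatives were other scalings and filters, DESeq2 1.42.0, limma 3.58.1 voom, 1 surrogate variable from sva 3.50.0, a title-run term and left-out libraries. Fits that drop title runs, offset GC or combine the term with another choice were added after seeing the data.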

Additional observations from a re-analysis of the deposited data

How the results depend on the processing

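Calls for PRL depended on the fit. For average PRL, 0 of 37 genes were called with groups alone, 3 with the title-run term, 2 with no count filter, 2 with 1 surrogate variable, 2 with DESeq2, 1 with limma-voom, 1 under scaling by library size alone, 1 without title run 1, 2 with a GC offset and 4 with the GC offset and the term. With the term it was 3 under RLE, 3 under upper-quartile and 2 under library-size scaling. Without the term it was 0 under RLE and upper-quartile scaling, with the stricter count filter and with no robust estimation. Those fits called 0.102%, 0.119%, 0.155% and 0.13% of all genes. It was also 0 without title run 2 or 3 (0.0279% and 0.00558% of all genes). TNS4 was among those called wherever any gene of the 37 was, and NEDD9 wherever 2 or more were. TNS4 was called in 8 of 25 alternatives without the term and in 17 of 17 with it. Over all genes the share called was 0.366% with no filter, 0.379% with 1 surrogate variable, 0.487% with DESeq2 and 0.656% with limma-voom. It was 0.141% under library-size scaling, 0.211% without title run 1, 0.334% with the GC offset and 1.63% with that offset and the term. With the term it was 1.09% under RLE, 1.06% under upper-quartile and 0.82% under library-size scaling. Leaving out 1 library called 11 to 27 of all genes without the term and 105 to 319 with it. Of the 37 it called 0 to 1 and 1 to 4. The count without the term was 1 only without intact PRL 1. For PRL in the intact line the count was 2 with no filter and 1 with the title-run term, also with the GC offset or any of the 3 scalings, and 1 to 2 with 1 library left out. In the deleted line it was 1 with no filter and 1 with the title-run term in all of these. No filter called 0.136% of all genes in the intact and 0.0975% in the deleted line. The fits with the term called 13 to 96 and 12 to 116 of all genes. Both lines gave 0 in every other fit without the term, those with 1 library left out included. For the I-tail deletion and the difference in response, 0 were called in every fit run. The cause of the differences between fits was not tested.

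Over all genes, average PRL called 21 genes with groups alone, 86 with DESeq2, 116 with limma-voom, 124 with no filter, 198 with the title-run term and 67 with 1 surrogate variable. It called 37, 5 and 1 without title runs 1, 2 and 3. Library-size scaling moved the median of all genes from -0.02 to -0.12 and that of the 37 from 0.17 to 0.07. For PRL in the deleted line the median of the 37 turned from 0.06 to -0.02 under it, and to -0.03 with the title-run term as well. For the deletion it ran from -0.05 to 0.13 in untreated, -0.10 to 0.11 in PRL-treated cells and -0.03 to 0.11 on average over all alternatives. The deviations of same-run libraries correlated at a median of 0.25, as a hint from the data and not from the labels. For different runs the median was -0.20. Deviations from a group mean cancel over the runs, so a negative value there follows from the positive one and is no second hint. The labels give no replicate numbers, so a block could only follow the order of the titles, as the title-run term does. At 3 libraries a group and with groups alone, the median SE over all genes was 0.319 for PRL in 1 line. It was 0.451 for the difference in response, so small differences were not detectable in that fit.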
